A study of Mus musculus with 10 samples.

Results

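Solute carriers are the membrane proteins that move amino acids, sugars, ions, metals, vitamins, nucleosides and metabolites across the plasma membrane and the membranes of organelles. The genes described here were the 174 solute carriers with a mean of at least 50 raw counts over 4 RNA-seq libraries, among 52636 gene identifiers in the count tables. They were chosen by symbol (Slc, a family number, the letter a and a member number), without Slc2a1, Slc2a3 and Slc22a18, which left 331 carriers, and then selected on their mean raw count. All 174 entered the test, and 157 carriers were under the minimum, of which 30 had no count in any library. Carriers with other letters in the symbol, such as those of the Slco group, are not among the 174.

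The study used E14 cells, a mouse embryonic stem cell line, in a WT form and in a form named CBE-KO, the series title describing a CTCF binding element that acts on the HoxA cluster. CTCF is a DNA-binding protein that anchors chromatin loops. Every RNA-seq library came from cells moved out of LIF and 2i medium, which maintains the stem cell state, into medium with 2 µM retinoic acid (RA) for 24 h, so there was no untreated library among them. The groups held 2 WT and 2 CBE-KO libraries, called replicate 1 and replicate 2 of each, and the labels do not say how many clones the CBE-KO cells came from or what sequence was removed.

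Carriers are grouped into numbered families by sequence, and members of a family often share a substrate. Some work alone, and others need a partner, such as the heavy chain Slc3a2 that brings several amino acid exchangers to the cell surface. Stem cells draw on amino acid, glucose and metal uptake for growth, and the mitochondrial family Slc25 links the cytosol with the mitochondrial matrix. The question put to the data was which carriers differed in transcript level between CBE-KO and WT cells, by substrate class.

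The libraries held 14108038 to 15632960 counts assigned to genes, and the 174 carriers took 0.901% and 0.921% of the counts of the WT libraries and 0.950% and 0.948% of those of the CBE-KO libraries. Levels are CPM, counts scaled to the size of the library, after TMM scaling, a correction for library composition, and 3 counts correspond to 0.185 to 0.218 CPM. Embryonic stem cell markers summed to 8710 to 8984 CPM in WT and 8194 to 8344 CPM in CBE-KO, and of 12 markers 3 were called higher and 8 lower in CBE-KO. Of the tested neuroectoderm markers 7 of 9 were called higher and 1 lower, with a summed level of 104 to 115 CPM in WT and 114 CPM in both CBE-KO libraries. Their median log2 fold change (CBE-KO over WT) was 1.43. The sum includes Tubb3, the marker called lower, with counts of 1085 and 887 in WT and 655 and 599 in CBE-KO. For extraembryonic endoderm 6 of 9 were called higher and none lower (331 to 336 and 352 to 354 CPM, WT then CBE-KO, as in the lists that follow), and for fibroblasts 2 of 3 higher and none lower (15.6 to 17.2 and 23 to 27.8 CPM), with Dcn, Lum and Postn at 0 in every library. Trophoblast markers had 2 of 8 called higher and 2 lower (111 to 121 and 117 to 118 CPM), and mesoderm markers 1 of 5 higher and none lower (16.1 to 18.3 and 18.8 to 19 CPM). Of all tested genes 43.1% were called, so calls in these lists were to be met often. Y-linked genes summed to 0.873 to 1.30 CPM in WT and 150 to 159.5 CPM in CBE-KO, so the groups differed in more than the label, and an effect of the deletion and another difference between the cell lines cannot be told apart. The part of these differences in the carrier results was not tested, and in bulk RNA fewer cells of a type and less RNA per cell cannot be told apart.

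Carriers changed in both directions, with rises more frequent than falls. Of the 174, 90 were called, that is, had an adjusted p under 0.05 with edgeR's quasi-likelihood test (two-sided, Benjamini-Hochberg over all 16005 tested genes), or 51.7%. The share called was 43.1% among all tested genes and 49.6% among the 11927 tested genes with a mean of at least 50 counts, so the share among the carriers was near the background. In CBE-KO 57 carriers rose, or 32.8%, against 23.2% of the tested genes with that mean count. Falls numbered 33, or 19%, against 26.5% of those genes. The median log2 fold change (CBE-KO over WT) was 0.11 for the carriers and -0.01 for the tested genes of at least 50 counts. With scaling by library totals alone, which put the median log2 fold change of all tested genes at 0.11, 74 carriers were called higher and 21 lower, while 64.86% of called background genes were higher, against 46.66% with TMM.

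Called carriers moved by 0.48 on the log2 scale at the median, in either direction, and 47 of the 90 moved by less than 0.5. A call together with a change of at least 1 on the log2 scale was found for 10 carriers, 8 higher and 2 lower, or 5.75%, against 4.62% of background genes. The CPM of the WT and CBE-KO libraries did not overlap for 131 carriers, or 75.3%, against 74.3% of background genes. Many carriers named below were picked among called carriers without overlap, so that trait in them is no separate result. DESeq2 on the same counts called 58 carriers, 36 higher and 22 lower, against 32.2% of background genes. Across 12 refits (other scalings, filters and tests, and leaving out each library), 55 of the 90 calls held in every one, 35 of them higher and 20 lower, and no called carrier changed sign.

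**Figure D1:**
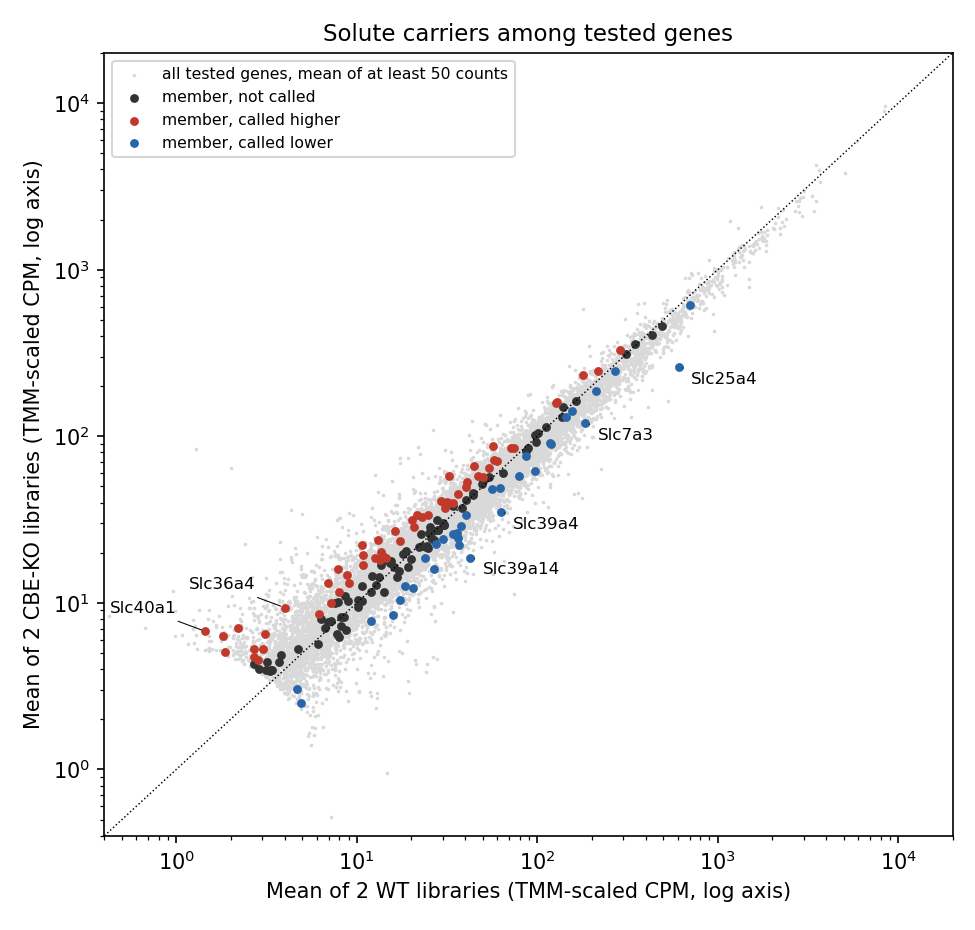
Mean TMM-scaled CPM of the 2 WT libraries (horizontal, log axis) and of the 2 CBE-KO libraries (vertical, log axis) for every tested gene with a mean of at least 50 counts (grey) and for the 174 solute carriers (black where not called, red where called higher, blue where called lower). Most carriers lie along the dotted line of equal level, with Slc40a1 and Slc36a4 above it and Slc25a4, Slc39a14, Slc39a4 and Slc7a3 below it.

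**Figure D2:**
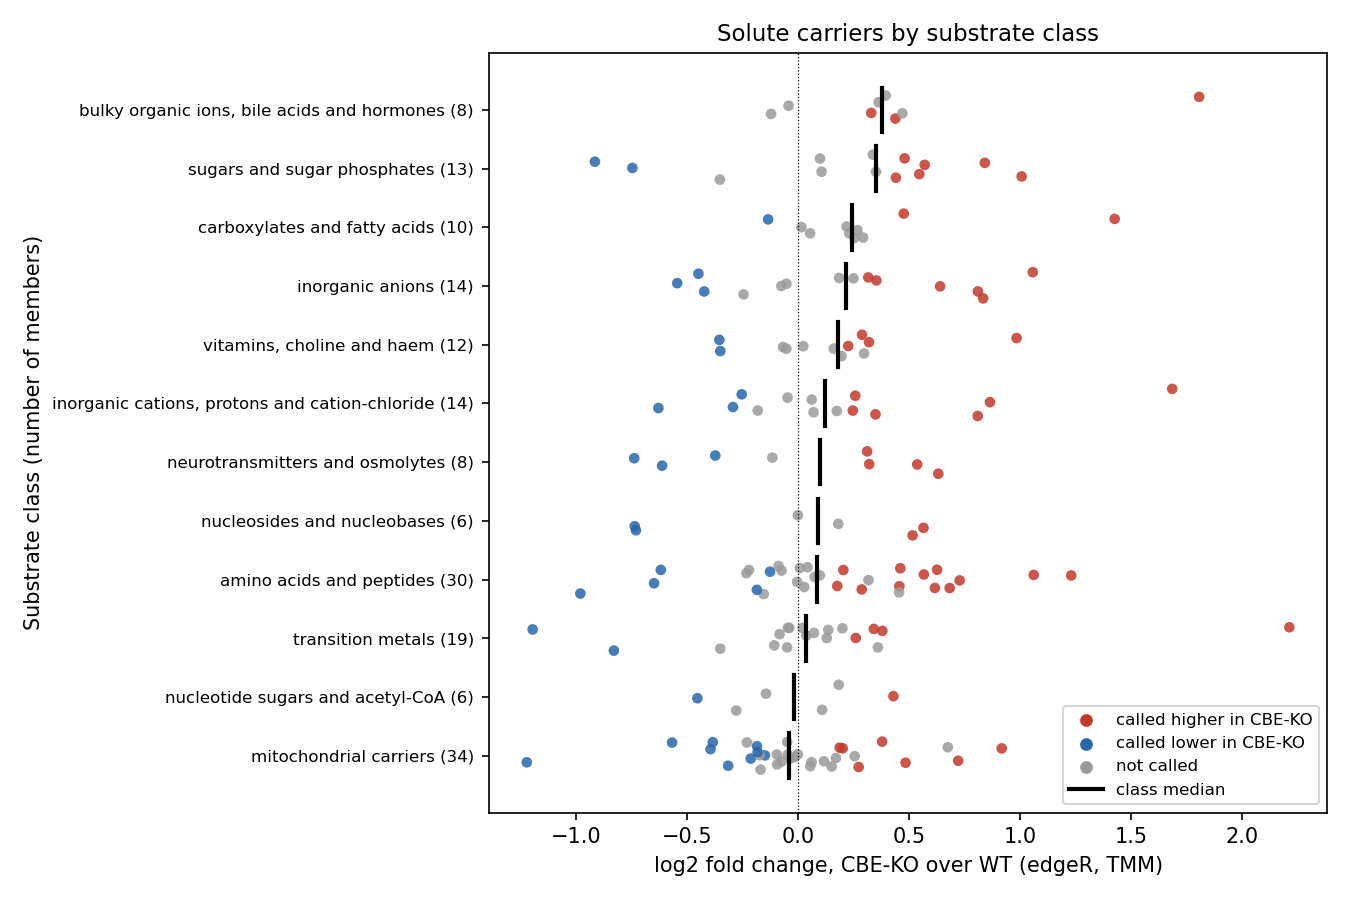
Log2 fold change of each of the 174 carriers (horizontal) by substrate class (vertical), with 1 point per gene coloured by call and a bar at the class median. Class medians run from -0.04 for mitochondrial carriers to 0.38 for carriers of bulky organic ions.

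**Figure D3:**
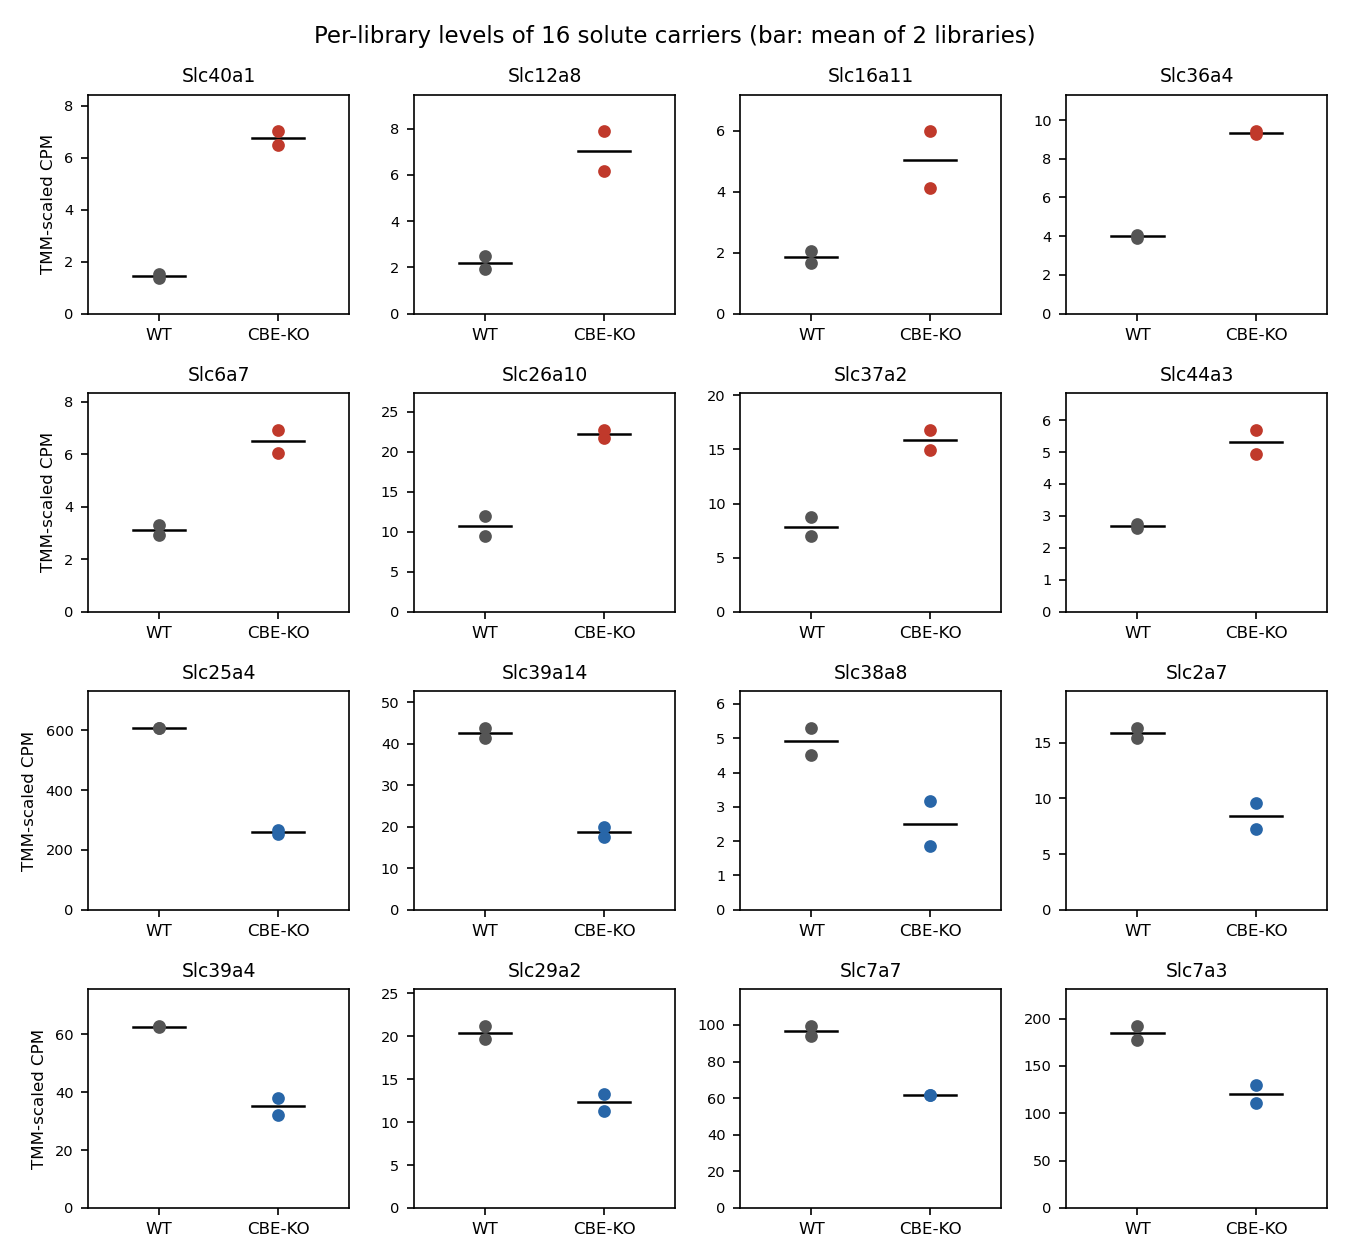
TMM-scaled CPM (vertical, from 0) in each library (points) with the mean of 2 libraries (bar) for 16 carriers, WT beside CBE-KO, 8 that rose (red) and 8 that fell (blue). In each of the 16 panels the WT and CBE-KO points are separate, which was a condition for naming these carriers.

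The minimum of 50 counts was part of the choice of genes and is described without a test. The lowest carriers inside it were Slc47a2 with a mean of 51.25 counts, Slc16a11 with 51.75 and Slc25a24 with 52. Just outside it lay Slc25a53 with 49.75, Slc7a8 with 48.25 and Slc6a15 with 47.25. Under a minimum on the mean of all libraries, a gene of low level can enter through the group in which it is higher. In WT alone 16 of the 174 had a mean under 50 counts, of which 9 were called higher and none lower, and in CBE-KO alone 2 did, Slc38a8 and Slc18a1, which were called lower. With a minimum of 50 counts in each group, 156 carriers remained, with 48 called higher and 31 lower. Among the 157 carriers under the minimum, 56 were tested, with 15 called higher and 6 lower.

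Amino acid and peptide carriers formed a class of 30 genes, of which 12 rose and 5 fell, with a median log2 fold change of 0.09. For this class and those below, the background was 23.2% of tested genes of at least 50 counts called higher and 26.5% lower. Slc36a4, a proton-coupled amino acid carrier, was at 3.90 and 4.07 CPM in WT and 9.30 and 9.42 CPM in CBE-KO. It rose by 1.23 ± 0.18 on the log2 scale (standard error, as in all that follow; edgeR adjusted p = 3.55e-05), and its groups did not overlap. Slc6a7, a proline carrier known from neurons, was at 3.29 and 2.91 CPM in WT and 6.04 and 6.94 CPM in CBE-KO (log2 fold change 1.06 ± 0.22, adjusted p = 0.000676). The peptide carrier Slc15a1 was at 9.93 and 7.78 CPM in WT and at 14.5 and 14.9 CPM in CBE-KO (0.73 ± 0.15, adjusted p = 0.000691). Both CBE-KO libraries lay above both WT libraries in each of these genes, which was a condition for naming them.

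Slc1a4, which exchanges serine and other small neutral amino acids, was at 54.4 and 59.5 CPM in WT and at 89.7 and 85.8 CPM in CBE-KO, 1.54-fold higher (adjusted p = 4.97e-07). Slc36a1, a lysosomal amino acid carrier, stood at 21.3 and 19.3 CPM in WT and 28.2 and 34.2 CPM in CBE-KO (1.53-fold, adjusted p = 0.000136). Slc38a9, a lysosomal carrier that reports arginine to the growth regulator mTORC1, stood at 12.6 CPM in both WT libraries and at 18.8 and 18.5 CPM in CBE-KO (1.48-fold, adjusted p = 0.000887). All 3 rose without overlap. The peptide carrier Slc15a2 and the leucine carrier Slc43a2 also rose, with log2 fold changes of 0.46 each. Slc7a5, which imports large neutral amino acids, went from 287 CPM in both WT libraries to 330 and 331 CPM, a rise of 1.15-fold (adjusted p = 0.00157). Its partner chain Slc3a2 was at 340 and 354 CPM in WT and 360 and 355 CPM in CBE-KO (log2 fold change 0.04 ± 0.05, adjusted p = 0.496). The glutamine carrier Slc1a5 rose from 216 and 219 CPM to 240 and 252 CPM (0.18 ± 0.05, adjusted p = 0.00679). These abundant carriers thus moved by little, even where the call was made.

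Slc7a7, an exchanger of cationic for neutral amino acids, was at 99.5 and 93.7 CPM in WT and 61.6 and 61.7 CPM in CBE-KO. It fell by 0.65 ± 0.06 on the log2 scale (adjusted p = 1.27e-07). Slc7a3, an arginine and lysine importer, was at 177 and 192 CPM in WT and at 130 and 111 CPM in CBE-KO, and fell by 0.62 ± 0.06 (adjusted p = 7.01e-07). The related importer Slc7a1 fell by 0.13 ± 0.05, from 262 and 277 CPM to 246 and 248 CPM (adjusted p = 0.0421), while Slc7a2 rose from 3.63 and 2.04 CPM to 4.81 and 4.33 CPM (adjusted p = 0.0466). Slc7a2 had a mean under 50 counts in WT and entered the 174 through its level in CBE-KO. Slc38a2, a neutral amino acid carrier, fell from 209 and 216 CPM to 192 and 182 CPM (adjusted p = 0.00554), and Slc38a8 from 4.52 and 5.31 CPM to 1.85 and 3.16 CPM (adjusted p = 0.00646). Slc38a4, an imprinted carrier of neutral amino acids, was at 308 and 313 CPM in WT and at 313 and 310 CPM in CBE-KO, with overlapping groups and a log2 fold change of 0.01 ± 0.05 (adjusted p = 0.92). The other imprinted carrier considered, Slc22a3, had a mean of 0 counts and was not among the 174. The spans of Slc7a3 and Slc7a7 overlap other coding genes, Snx12 and Oxa1l, in RefSeq, so their counts are uncertain where reads could not be split.

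Calls of 7 amino acid carriers depended on the fit. DESeq2 did not call Slc7a1 (adjusted p = 0.0732), Slc7a2 (0.276), Slc7a6 (0.139), Slc15a2 (0.0841) or Slc38a8 (0.0703). Slc7a1 lost its call in 7 of the 12 refits (adjusted p 0.067 to 0.747), including the one with library totals alone and those without WT replicate 2 or either CBE-KO library. Slc7a2 lost it in 4 (0.0507 to 0.372), with DESeq2 and without WT replicate 2 or either CBE-KO library. Without CBE-KO replicate 2 the calls of Slc7a6 (0.157), Slc1a5 (0.12) and Slc38a2 (0.0994) were lost. Slc38a8 was not called without CBE-KO replicate 1 (0.117), and Slc15a2 not without WT replicate 2 (0.0765).

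Promoter windows of 300 bases from RefSeq (GRCm38.p6, 250 bases before to 50 after a start) were available by symbol for 127 of the 174 carriers, with 173 windows. They were searched on both strands for 4 short motifs: TGATGNAA, the element bound by the amino acid stress factor ATF4, TGCACNC, the core of the metal response element, TCACGTG, an E-box found in genes of lysosomes, and AGGTCA, the half-site of nuclear receptors. Matches of different motifs can share bases, as AGGTCA and TCACGTG can share TCA. TGATGNAA was in 2.89% of the carriers' windows and in 3.97% of all 32851 windows. TGCACNC was in 12.14% against 12.59%, TCACGTG in 8.67% against 3.77%, and AGGTCA in 11.56% against 16.26%. By call, TCACGTG was in 4.0% of the 50 windows of carriers that rose, 2.94% of the 34 of those that fell and 13.48% of the 89 of those not called. In the same order TGATGNAA was in 6.0%, 5.88% and 0%, TGCACNC in 14%, 0% and 15.73%, and AGGTCA in 4.0%, 17.65% and 13.48%. The metal carriers Slc40a1, which rose, and Slc39a4 and Slc39a14, which fell, had no window. The 0% for TGCACNC thus does not cover the metal carriers that fell. These are shares of windows, not of genes, and windows of the same gene can overlap. Both windows behind the 5.88% belong to Slc7a7 and hold the same TGATGCAA. A match describes letters in a window and is neither a binding site nor a cause.

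The TGATGNAA letters occurred in windows of 4 carriers, Slc1a4, Slc26a10 and Slc50a1, which rose, and Slc7a7, which fell. Windows of an amino acid carrier that rose and of an amino acid carrier that fell are shown because they hold the same motif letters, which are in capitals (TTGCATCA is TGATGCAA read on the other strand). These genes were chosen after their values were seen. Both windows lie on the minus strand and are printed 5′ to 3′ on it, at chr11:20332664-20332963 for Slc1a4 and at chr14:54417895-54418194 for Slc7a7, which has 5 windows in the table.
Slc1a4: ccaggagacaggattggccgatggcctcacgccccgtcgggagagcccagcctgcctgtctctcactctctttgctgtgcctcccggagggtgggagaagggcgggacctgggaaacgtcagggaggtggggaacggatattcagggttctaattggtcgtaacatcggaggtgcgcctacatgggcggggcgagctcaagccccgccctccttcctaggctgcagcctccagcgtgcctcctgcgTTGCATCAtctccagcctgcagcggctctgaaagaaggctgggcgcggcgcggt
Slc7a7: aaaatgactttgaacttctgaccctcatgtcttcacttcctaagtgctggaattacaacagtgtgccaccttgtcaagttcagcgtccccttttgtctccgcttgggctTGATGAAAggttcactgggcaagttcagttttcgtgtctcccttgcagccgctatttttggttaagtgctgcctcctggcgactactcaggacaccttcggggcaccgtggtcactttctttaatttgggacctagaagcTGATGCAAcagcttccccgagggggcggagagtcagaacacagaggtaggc
In Slc1a4 the match began 4 bases before the start, and in this Slc7a7 window the matches began 141 bases and 1 base before it. Other genes of the amino acid stress response, a list of 24 genes without solute carriers, had 2 members called higher and 13 lower, with a median log2 fold change of -0.18, where 43.1% of all tested genes were called. With library totals alone 3 were called higher and 11 lower, with a median of -0.08. Among them Asns, which makes asparagine, had counts of 7730 and 7384 in the WT libraries and of 7919 and 7168 in the CBE-KO libraries (log2 fold change -0.12, adjusted p = 0.0378). The factor itself, Atf4, had counts of 6642 and 6153 in the WT libraries and of 7077 and 6363 in the CBE-KO libraries (-0.05, adjusted p = 0.435).

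**Figure D4:**
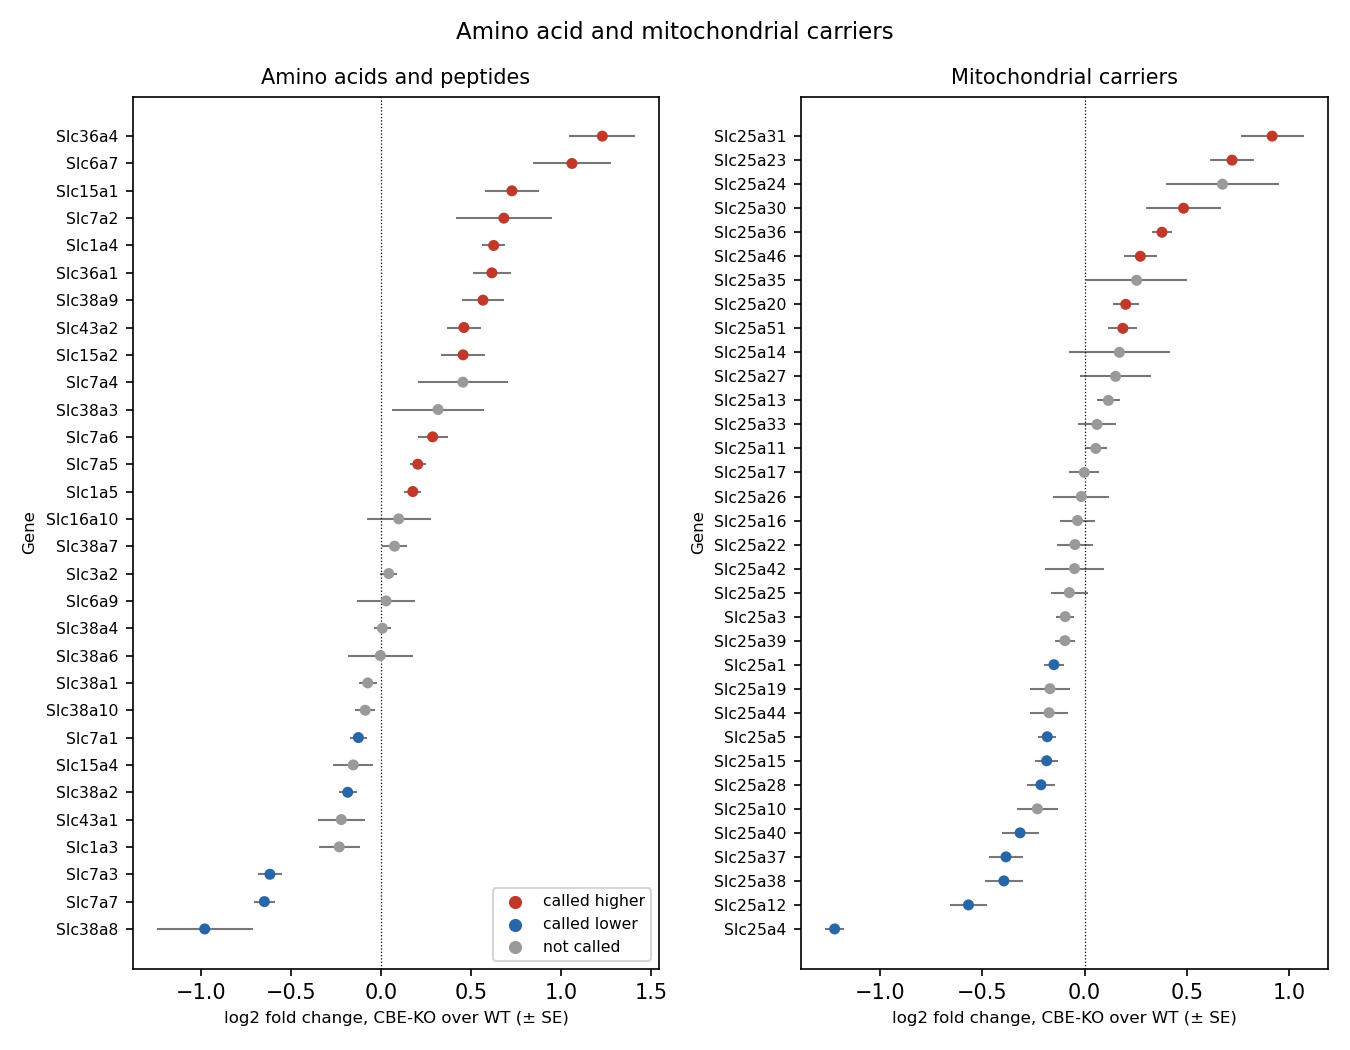
Log2 fold change of CBE-KO over WT (horizontal, point) with its standard error (line) for the 30 amino acid and peptide carriers (left) and the 34 mitochondrial carriers (right), in order of the change and coloured by call. Rises and falls stand in both panels, and Slc25a4 lies apart at the bottom of the right panel at -1.22.

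Mitochondrial carriers of family Slc25 were the largest class, with 34 genes, and had 7 rises and 9 falls with a median log2 fold change of -0.04. The class is known for exchanging ADP for ATP, moving phosphate, citrate and amino acids, and supplying iron and glycine for haem. With library totals alone the balance turned, with 10 called higher and 4 lower. Slc25a4, which exchanges ADP for ATP across the inner membrane, was at 608 and 609 CPM in WT and at 255 and 267 CPM in CBE-KO. This was the largest fall among the 174, by 1.22 ± 0.05 on the log2 scale, 0.429 of the WT level (adjusted p = 2.60e-12). Its relative Slc25a5 was at 711 and 688 CPM in WT and at 610 and 623 CPM in CBE-KO, 0.881 of the WT level (adjusted p = 0.00328). The third ADP/ATP carrier measured, Slc25a31, known from germ cells, rose from 7.39 and 6.54 CPM to 12.6 and 13.8 CPM, 1.89-fold (adjusted p = 0.000116). The ADP/ATP carriers thus moved in different directions, each without overlap between groups. The RefSeq promoter window of Slc25a4, shown because it belongs to the carrier that fell furthest, lies at chr8:46211013-46211312 on the minus strand, is printed 5′ to 3′ on that strand, and holds none of the 4 motifs.
Slc25a4: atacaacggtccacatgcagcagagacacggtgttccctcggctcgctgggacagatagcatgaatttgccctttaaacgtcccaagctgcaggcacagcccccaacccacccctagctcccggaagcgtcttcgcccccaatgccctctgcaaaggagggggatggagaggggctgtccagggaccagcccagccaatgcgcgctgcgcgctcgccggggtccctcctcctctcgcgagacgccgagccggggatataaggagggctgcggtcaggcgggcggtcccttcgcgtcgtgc

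Slc25a23, an ATP and phosphate exchanger regulated by calcium, was at 15.4 and 17.2 CPM in WT and at 28.5 and 25.1 CPM in CBE-KO (1.65-fold, adjusted p = 3.66e-05). The pyrimidine nucleotide carrier Slc25a36 rose from 175 and 185 CPM to 241 and 227 CPM (1.30-fold, adjusted p = 1.21e-05). Slc25a30 rose from 5.34 and 6.98 CPM to 8.93 and 8.25 CPM (1.40-fold, adjusted p = 0.0399). These were the largest mitochondrial rises after Slc25a31. Slc25a46, which acts in mitochondrial shape, Slc25a20, the carnitine and acylcarnitine carrier, and Slc25a51, which brings in NAD, also rose, with log2 fold changes of 0.27, 0.20 and 0.19. With DESeq2 the calls of Slc25a30, Slc25a46, Slc25a20 and Slc25a51 were lost (adjusted p of 0.267, 0.165, 0.159 and 0.301). They were also lost without WT replicate 1 (0.268 for Slc25a30, 0.0735 for Slc25a46 and 0.139 for Slc25a51), without CBE-KO replicate 1 (0.168, 0.0614 and 0.397 for the same genes), without WT replicate 2 (0.12 for Slc25a20) or without CBE-KO replicate 2 (0.169 for Slc25a20 and 0.0524 for Slc25a30).

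The aspartate and glutamate exchanger Slc25a12 fell from 34.2 and 38.4 CPM to 23.7 and 25.2 CPM, 0.675 of the WT level (adjusted p = 6.03e-05), while its relative Slc25a13 was at 132 and 147 CPM in WT and at 151 and 150 CPM in CBE-KO (0.12 ± 0.06, adjusted p = 0.0998). Slc25a38, which brings glycine into mitochondria for haem synthesis, fell from 34 CPM in both WT libraries to 23.7 and 28 CPM, by 0.39 ± 0.09 (adjusted p = 0.00214). The mitochondrial iron importer Slc25a37 fell from 36.4 and 39.3 CPM to 29.1 and 28.8 CPM, by 0.38 ± 0.08 (adjusted p = 0.000947). The other mitochondrial iron importer, Slc25a28, fell as well, by 0.21 ± 0.07 (adjusted p = 0.017). The citrate carrier Slc25a1, the ornithine carrier Slc25a15 and Slc25a40 fell by 0.15, 0.19 and 0.32. Slc25a3, which imports phosphate, was at 498 and 484 CPM in WT and at 455 and 464 CPM in CBE-KO (adjusted p = 0.103). Slc25a39, which imports glutathione, was at 432 and 430 CPM in WT and at 389 and 417 CPM in CBE-KO (adjusted p = 0.12). With library totals alone Slc25a1 (adjusted p = 0.494), Slc25a15 (0.284), Slc25a28 (0.221), Slc25a5 (0.165) and Slc25a40 (0.0703) were not called, and the log2 fold changes of Slc25a3 and Slc25a39 were above 0. DESeq2 did not call Slc25a1 (adjusted p = 0.0898), Slc25a15 (0.101), Slc25a28 (0.127) or Slc25a40 (0.102). Without CBE-KO replicate 1 Slc25a5 (0.0573), Slc25a1 (0.177), Slc25a15 (0.122) and Slc25a28 (0.104) lost the call, without CBE-KO replicate 2 Slc25a1 (0.0588) and Slc25a28 (0.0574) did, and without WT replicate 2 Slc25a40 (0.102) and Slc25a15 (0.0522) did.

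Transition metal carriers, 19 genes, had 4 rises and 2 falls with a median log2 fold change of 0.04, and held both the largest rise among the 174 and a large fall. Slc40a1 is ferroportin, the exporter that releases iron from cells. It was at 1.37 and 1.53 CPM in WT, from a mean of under 50 counts there, and at 6.47 and 7.01 CPM in CBE-KO. It rose by 2.21 ± 0.25 on the log2 scale, 4.63-fold (adjusted p = 1.41e-06), with no overlap. Slc39a14, an importer of zinc, iron and manganese, was at 41.5 and 43.9 CPM in WT and at 17.4 and 19.9 CPM in CBE-KO, and fell by 1.2 ± 0.09 (adjusted p = 1.29e-08). Slc39a4, the zinc importer known from the gut and from embryonic tissue, was at 62.4 and 62.9 CPM in WT and at 38.1 and 32.2 CPM in CBE-KO, and fell by 0.83 ± 0.08 (adjusted p = 2.60e-07). These changes all held in the 12 refits.

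Slc31a1, the copper importer, rose from 40.9 and 41.2 CPM to 56.6 and 50.1 CPM (1.30-fold, adjusted p = 0.000626). Slc39a1, a zinc importer of the cell surface, rose from 30.9 and 32.3 CPM to 38.9 and 41.2 CPM (1.27-fold, adjusted p = 0.00195), and was not called with DESeq2 (0.054). Slc30a9, a carrier of mitochondrial zinc, rose from 70.8 and 71.5 CPM to 84.9 and 85.5 CPM (1.2-fold, adjusted p = 0.00129). The zinc importer family Slc39 thus had 1 rise and 2 falls among 9 genes, and the zinc exporter family Slc30 had 1 rise and no fall among 5. Slc30a5 was at 68.6 and 61.4 CPM in WT and at 62.6 and 58.1 CPM in CBE-KO (adjusted p = 0.234). Slc39a10 was at 53.9 and 54.0 CPM in WT and at 61.2 and 52.1 CPM in CBE-KO, with overlapping groups (adjusted p = 0.486). The iron importer Slc11a2 also overlapped, at 37.6 and 38.6 CPM in WT and at 34.6 and 39.7 CPM in CBE-KO (adjusted p = 0.733).

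Among 12 genes that handle zinc, copper or iron and are not solute carriers, 11 were tested, with 5 called higher and 3 lower. Their median log2 fold change was 0.20 (5 and 1 with library totals alone, median 0.31). The share called among all tested genes was 43.1%. The metallothionein Mt1, a zinc-binding protein, had counts of 5159 and 4934 in the WT libraries and of 8587 and 8309 in the CBE-KO libraries (log2 fold change 0.63, adjusted p = 1.93e-08). Mt3 had counts of 66 and 46 in the WT libraries and of 235 and 173 in the CBE-KO libraries (1.74, adjusted p = 9.40e-07). The ferritin chains differed in direction, Ftl1 with counts of 1360 and 976 in the WT libraries and of 1860 and 1563 in the CBE-KO libraries (0.43, adjusted p = 0.000477), and Fth1 with 7413 and 6226 in WT and 6941 and 6273 in CBE-KO (-0.16, adjusted p = 0.0202). The transferrin receptor Tfrc had counts of 3234 and 3033 in the WT libraries and of 3394 and 3004 in the CBE-KO libraries (-0.09, adjusted p = 0.142).

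**Figure D5:**
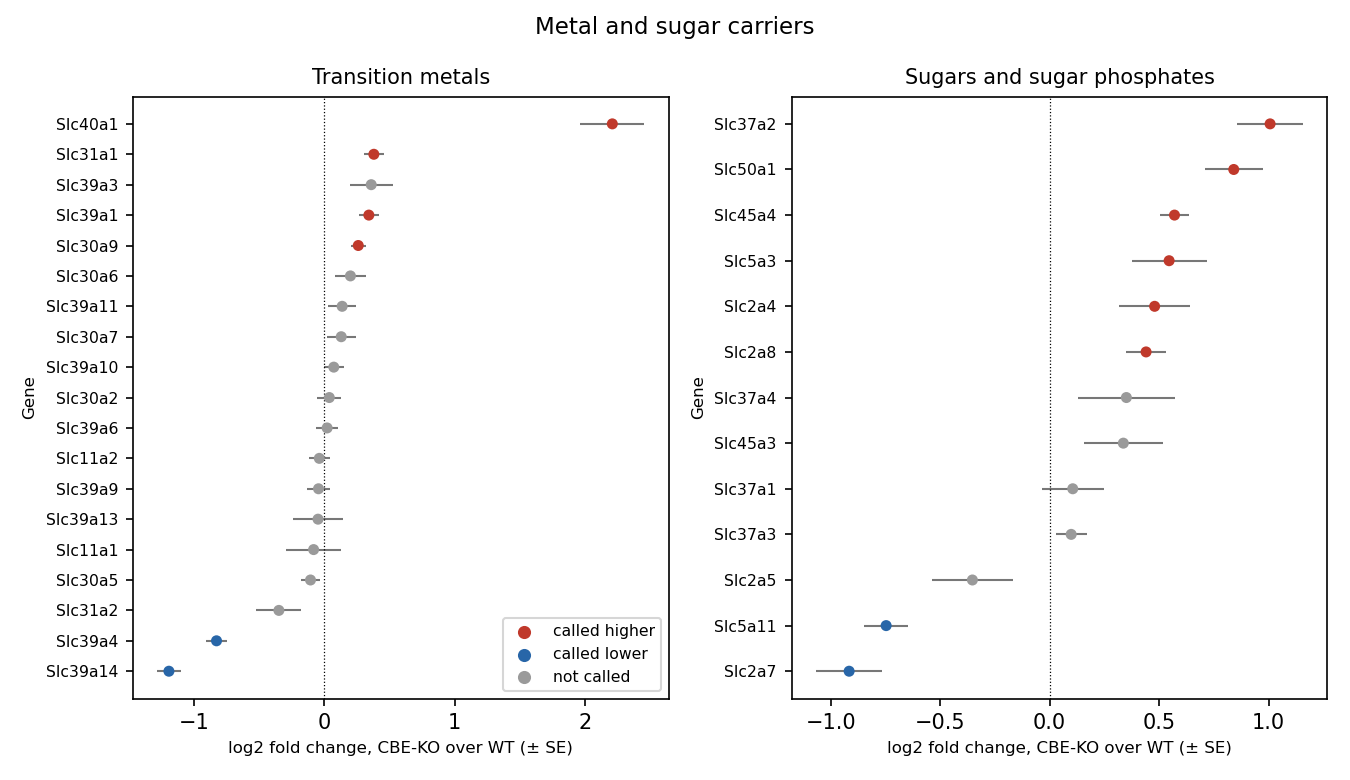
Log2 fold change of CBE-KO over WT (horizontal, point) with its standard error (line) for the 19 transition metal carriers (left) and the 13 sugar carriers (right), in order of the change and coloured by call. Slc40a1 lies at 2.21 and Slc39a14 at -1.2, while the other metal carriers lie between -0.83 and 0.38.

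Sugar and sugar phosphate carriers, 13 genes, had 6 rises and 2 falls, with a median log2 fold change of 0.35. Slc37a2, a sugar phosphate exchanger, was at 8.76 and 6.98 CPM in WT and at 14.9 and 16.8 CPM in CBE-KO (2.01-fold, adjusted p = 3.74e-05). Slc50a1, the mouse sugar carrier of the SWEET type, rose from 12.1 and 9.67 CPM to 19.6 and 19.4 CPM (1.79-fold, adjusted p = 5.84e-05). Slc45a4 rose from 44.8 and 44.2 CPM to 65.2 and 67.0 CPM (1.49-fold, adjusted p = 2.35e-06). The glucose carriers Slc2a4, which responds to insulin in muscle and fat, and Slc2a8, an intracellular carrier, rose by 0.48 ± 0.16 and 0.44 ± 0.09. Carriers of inositol moved in opposite directions. Slc5a3 rose from 9.24 and 6.69 CPM to 10.8 and 12.6 CPM (adjusted p = 0.0158), and its span overlaps Mrps6. Slc5a11 fell from 26.4 and 26.8 CPM to 15.5 and 16.3 CPM, by 0.75 ± 0.10 (adjusted p = 1.32e-05). Slc2a7 fell from 15.4 and 16.4 CPM to 7.27 and 9.62 CPM, by 0.92 ± 0.15 (adjusted p = 0.000103). Slc2a4 lost its call with DESeq2 (0.214) and without WT replicate 1 (0.115) or CBE-KO replicate 2 (0.153), and Slc5a3 with DESeq2 (0.131) and without WT replicate 2 (0.148) or CBE-KO replicate 2 (0.0904).

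Carriers of bulky organic ions, bile acids and hormones, 8 genes, had 3 rises and no fall. Slc10a7, of the bile acid carrier family, rose from 59.4 and 55.5 CPM to 70.1 and 74.4 CPM (1.26-fold, adjusted p = 0.000507). Slc22a17, of the organic ion family, rose from 12.5 and 14.2 CPM to 17.2 and 19 CPM (1.35-fold, adjusted p = 0.00857). Slc22a17 lost its call with DESeq2 (0.109) and without WT replicate 1 (0.0689) or CBE-KO replicate 2 (0.0508).

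Carboxylate and fatty acid carriers, 10 genes, had 2 rises and 1 fall. Slc16a11, of the monocarboxylate family, was at 2.05 and 1.67 CPM in WT and at 4.13 and 5.98 CPM in CBE-KO (2.69-fold, 1.43 ± 0.27, adjusted p = 0.000398). Slc27a1, which brings in long-chain fatty acids, rose from 29.1 and 29.2 CPM to 38.6 and 42.6 CPM (1.39-fold, adjusted p = 0.00015). The lactate carriers moved by little. Slc16a3, known for lactate export, was at 151 and 159 CPM in WT and at 137 and 146 CPM in CBE-KO, a fall of 0.14 ± 0.05 (adjusted p = 0.0448). Slc16a1 was at 114 and 111 CPM in WT and at 111 and 116 CPM in CBE-KO, with overlap (adjusted p = 0.849). The call of Slc16a3 was lost in 8 of the 12 refits (adjusted p 0.0503 to 0.669), including those without WT replicate 2 (0.164) or CBE-KO replicate 1 (0.367) and the one with a replicate block (0.0543), and the span of the gene overlaps Csnk1d.

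Inorganic anion carriers, 14 genes, had 6 rises and 3 falls, with a median log2 fold change of 0.22. Slc26a10, of an anion exchanger family, was at 9.45 and 12 CPM in WT and at 22.8 and 21.7 CPM in CBE-KO (2.08-fold, adjusted p = 4.23e-06), and its span overlaps B4galnt1. Slc4a7, which brings in sodium and bicarbonate, rose from 32.5 and 32.4 CPM to 58.5 and 57.1 CPM (1.78-fold, adjusted p = 7.13e-08). The related bicarbonate carriers Slc4a8 and Slc4a3 rose by 0.64 ± 0.10 and 0.35 ± 0.08. In contrast Slc4a2, a chloride and bicarbonate exchanger, fell from 35.9 CPM in both WT libraries to 27.2 and 25.3 CPM (adjusted p = 0.000302), and Slc4a11 fell from 16.8 and 20.1 CPM to 13 and 12.3 CPM (adjusted p = 0.00226). Family Slc4 thus had called members in both directions. The sulphate carriers Slc26a2 and Slc13a4 rose by 0.32 ± 0.07 and 0.81 ± 0.27, and Slc13a4 lost its call without WT replicate 2 (0.25) or CBE-KO replicate 2 (0.0592) and with DESeq2 (0.179). The phosphate importer Slc20a1 fell from 123 and 116 CPM to 91.5 and 87.0 CPM, by 0.42 ± 0.06 (adjusted p = 8.54e-06), while Slc20a2 was at 86.9 and 90.2 CPM in WT and at 84.9 and 85.8 CPM in CBE-KO (adjusted p = 0.48).

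Inorganic cation, proton and cation-chloride carriers, 14 genes, likewise had 6 rises and 3 falls. Slc12a8, of the cation-chloride family, was at 1.92 and 2.47 CPM in WT and at 7.89 and 6.18 CPM in CBE-KO, 3.21-fold higher (adjusted p = 2.06e-05). Among potassium and chloride exporters of the same family, 2 fell. Slc12a5, known from neurons, fell from 13.1 and 10.8 CPM to 7.70 and 7.77 CPM, by 0.63 ± 0.16 (adjusted p = 0.00359), and Slc12a4 fell from 38.1 and 42.5 CPM to 34.6 and 33 CPM (adjusted p = 0.0174). A related exporter, Slc12a7, overlapped between groups at 93.8 and 100 CPM in WT and 104 and 100 CPM in CBE-KO (adjusted p = 0.34). The magnesium carriers Slc41a3 and Slc41a1 rose by 0.81 ± 0.22 and 0.25 ± 0.06. The sodium and proton exchanger Slc9a8 fell by 0.29 ± 0.09. Calls lost when a library was left out were Slc41a3 without CBE-KO replicate 1 (0.0766), and Slc9a8 (0.0633 and 0.0638) and Slc12a4 (0.159 and 0.0945) without WT replicate 2 or CBE-KO replicate 2. With DESeq2 all 3 of these and Slc41a1 (0.0747) were not called, and with library totals alone Slc12a4 and Slc9a8 were not.

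Neurotransmitter and osmolyte carriers, 8 genes, had 4 rises and 3 falls. The taurine carrier Slc6a6 rose from 122 and 131 CPM to 156 and 160 CPM (1.25-fold, adjusted p = 7.88e-05). The creatine carrier Slc6a8, which is X-linked, rose from 128 and 131 CPM to 158 and 163 CPM (1.24-fold, adjusted p = 6.90e-05). Both rose without overlap. The carriers of family Slc17 were split in direction. Slc17a7, which loads glutamate, rose from 11 and 10.8 CPM to 17.3 and 16.4 CPM (1.55-fold, adjusted p = 0.000632). Slc17a5, the sialic acid carrier of lysosomes, rose from 8.35 and 9.67 CPM to 12.2 and 13.9 CPM (1.45-fold, adjusted p = 0.00765, and 0.0947 with DESeq2). Slc17a9, which loads nucleotides, fell from 16.8 and 18 CPM to 11.4 and 9.35 CPM, by 0.74 ± 0.14 (adjusted p = 0.000283). The monoamine carrier Slc18a1 fell from 4.24 and 5.09 CPM to 3.45 and 2.61 CPM (adjusted p = 0.0482), a call lost in 5 refits, among them those without WT replicate 2 (0.192) or CBE-KO replicate 2 (0.287), and Slc17a5 lost its call without CBE-KO replicate 2 (0.0688).

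Nucleoside and nucleobase carriers, 6 genes, had 2 rises and 2 falls. Slc28a1, which concentrates pyrimidine nucleosides with sodium, fell from 36.8 CPM in both WT libraries to 20.5 and 23.8 CPM, by 0.74 ± 0.09 (adjusted p = 4.88e-06). Slc29a2, an equilibrative nucleoside carrier, fell from 19.6 and 21.2 CPM to 11.3 and 13.3 CPM, by 0.73 ± 0.12 (adjusted p = 0.00013). Slc29a1 of the same family overlapped, at 165 and 162 CPM in WT and 157 and 169 CPM in CBE-KO (adjusted p = 0.988). The rises were the monoamine and nucleoside carrier Slc29a4, from 24.2 and 21.7 CPM to 31.1 and 34.6 CPM (1.43-fold, adjusted p = 0.000242), and the purine nucleobase carrier Slc43a3, from 14.5 and 12.7 CPM to 19.5 and 20.9 CPM (1.48-fold, adjusted p = 0.000921).

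Carriers of nucleotide sugars and acetyl-CoA, 6 genes that feed glycosylation and acetylation in the Golgi and endoplasmic reticulum, had 1 rise and 1 fall. Slc35a3, which carries UDP-N-acetylglucosamine, rose from 17.3 and 17.4 CPM to 23.3 and 23.4 CPM (1.35-fold, adjusted p = 0.00248, and 0.0609 with DESeq2). Slc35a4 fell from 77.0 and 82.2 CPM to 55.4 and 60.9 CPM, by 0.45 ± 0.07 (adjusted p = 2.71e-05), and its span overlaps Apbb3. Slc35a1, the CMP-sialic acid carrier, was at 27.2 and 28.1 CPM in WT and at 31.2 and 31.6 CPM in CBE-KO (adjusted p = 0.0882), and the acetyl-CoA carrier Slc33a1 overlapped between groups at 17.4 and 16.9 CPM in WT and 17.6 and 13.3 CPM in CBE-KO (adjusted p = 0.416).

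Vitamin, choline and haem carriers, 12 genes, had 4 rises and 2 falls, with a median log2 fold change of 0.18. The choline family Slc44 supplied 3 of the rises. Slc44a3 rose from 2.74 and 2.62 CPM to 4.93 and 5.70 CPM (1.98-fold, adjusted p = 0.00218), Slc44a1 by 0.32 ± 0.08 and Slc44a2 by 0.29 ± 0.07, while Slc44a4 was at 12.1 and 11.8 CPM in WT and 11.9 and 11.1 CPM in CBE-KO (adjusted p = 0.789). Slc23a2, which takes up vitamin C, rose by 0.23 ± 0.08 (adjusted p = 0.039). The falls were the thiamine carrier Slc19a2, from 60.9 and 63.8 CPM to 50.6 and 46.9 CPM (by 0.35 ± 0.07, adjusted p = 0.000454), and the biotin and pantothenate carrier Slc5a6, from 24.2 and 23.3 CPM to 19.2 and 18 CPM (adjusted p = 0.00955). The folate carriers Slc19a1 and Slc46a1 overlapped between groups, with log2 fold changes of -0.07 ± 0.10 and 0.02 ± 0.13. Slc23a2 was called in neither of the fits without a WT library (0.0907 and 0.0563) nor without CBE-KO replicate 1 (0.461), Slc44a2 was not called without CBE-KO replicate 2 (0.0698), and Slc5a6 was not called without WT replicate 1 (0.0539), and these 3 and Slc44a1 were not called with DESeq2 (0.292, 0.0615, 0.106 and 0.0669).

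The 174 carriers belonged to 45 families, and 33 families had at least 2 members. Of these 33, 14 had called members in both directions, 14 had rises and no fall, and 2 had falls and no rise. The 7 X-linked carriers had 3 rises and 2 falls. The 27 carriers whose span overlaps another coding gene had 4 rises and 6 falls. Slc18a1, whose span overlaps Atp6v1b2, was among these falls. Of the tested genes with a mean of at least 50 counts, 49.6% were called.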

How the data were processed

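RNA-seq of RA-treated E14 cells was read as whole-number counts per Ensembl gene identifier, 1 table per library, deposited by the authors without normalization, as the values show. The submitters' processing notes name HISAT2 2.1.0, HTSeq 0.9.1, DESeq2 1.18.1, Bowtie2 2.3.1 and mm10, with no roles. The strand setting, annotation release and handling of reads that match several genes are not given in the sources used here, so near-identical and overlapping genes are uncertain. Capture-C samples were not analysed here. Of 52636 identifiers, 52403 matched a symbol.

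Genes passing filterByExpr (16005) were tested with edgeR 4.0.16 in R 4.3.3 (glmQLFit and glmQLFTest, TMM scaling, no covariate, Benjamini-Hochberg over all tested genes, threshold 0.05). DESeq2 1.42.0 was an alternative. On simulated counts for 16005 genes with 200 changed by 1 on the log2 scale, edgeR recovered 156 of the 200 and DESeq2 133, with 7 and 0 false calls. The simulation had equal numbers of rises and falls and few changed genes, whereas 43.1% of tested genes were called in the data. It does not measure the recovery of smaller changes, such as the median of 0.48 among called carriers, or the effect of scaling. Groups came from the sample titles, with 2 libraries each, and p-values measure only the spread between these libraries, which may be technical. Replicates differed by more than counting noise (chi-square per degree of freedom of 3.57 for WT and 2.82 for CBE-KO). Floors of 3 counts cover counting error only.

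Substrate classes followed the family number, with exceptions for single genes. The carriers, classes and companion lists were chosen with earlier results of these data known. Named by rule were the 3 largest rises and falls per class and the 10 largest overall among carriers called without overlap, the 2 most counted carriers that did not pass in the amino acid, mitochondrial, metal and nucleotide sugar classes, Slc38a4 and Slc22a3, and 3 carriers on either side of the count minimum. Others were named after their values were seen. The values of some carriers are not reported here. Other scalings, filters, thresholds, minimum counts, a replicate block and leaving out each library were tried.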

Additional observations from a re-analysis of the deposited data

How the results depend on the processing

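DESeq2 called 58 of the 174 carriers against 90 with edgeR, and a required change of at least 1 on the log2 scale left 10. The remaining alternatives kept the count within 1.5 times, from 70 at a threshold of 0.01 to 103 with a minimum mean of 20 counts, and fits without a single library gave 73 to 85. None of the 90 called carriers changed sign in the 12 refits, and 35 lost the call in at least 1 of them, 32 with DESeq2. Of the 84 carriers not called, 27 passed in at least 1 refit and 40 changed sign in at least 1. Among named carriers, Slc38a4 had a log2 fold change of -0.0067 with DESeq2 and -0.0043 with median-of-ratios scaling, and Slc25a3 and Slc25a39 had 0.0093 and 0.0081 with library totals alone. Over fits without a single library, Slc38a4 ranged from -0.0062 to 0.0144, Slc39a10 from -0.0517 to 0.18, and Slc33a1 from -0.3693 to 0.0401. The causes were not tested. Slc25a24 passed in 6 refits.

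Replicate numbers 1 and 2 occur in either group. Libraries that share a number deviated from the means of their groups with a correlation of 0.037 over the tested genes, so the numbers were not taken as pairs. With the replicate block 91 carriers were called, 60 higher and 31 lower, and 88 were shared with the fit without it. Depth limits the precision of carriers of low count. The median mean count was 351.625, and 22 carriers had under 100. Of these 22, 50.0% were called (9 higher, 2 lower), against 43.3% of those with 100 to under 500 counts (24 and 15). From 500 to under 1000 counts 16 were called higher and 4 lower, and from 1000 counts 8 and 12.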

Other observations

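Carriers of the same superfamily that do not carry an Slc symbol with the letter a were counted from a list of 38 genes, of which 37 were in the tables and 31 were tested. In CBE-KO 9 were called higher and 8 lower, with a median log2 fold change of 0.12, where 43.1% of all tested genes were called. With library totals alone 13 were called higher and 6 lower. The organic anion carriers of the Slco group included the largest changes. Slco4c1 had counts of 26 and 21 in the WT libraries and of 131 and 91 in the CBE-KO libraries (log2 fold change 2.11, edgeR adjusted p = 2.64e-06), and Slco3a1 had 8 and 6 in WT and 30 and 33 in CBE-KO (2.04, adjusted p = 0.000808). Slco4a1 went the other way, with counts of 171 and 147 in the WT libraries and of 103 and 123 in the CBE-KO libraries (-0.60, adjusted p = 0.00774).

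The mitochondrial serine carrier Sfxn1 had counts of 1202 and 1162 in the WT libraries and of 889 and 790 in the CBE-KO libraries (-0.61, adjusted p = 3.30e-07), and its relative Sfxn3 had 154 and 169 in WT and 290 and 232 in CBE-KO (0.57, adjusted p = 0.0022). The phosphate exporter Xpr1 had counts of 450 and 456 in the WT libraries and of 686 and 623 in the CBE-KO libraries (0.41, adjusted p = 0.000346). The ammonium carrier Rhcg had counts of 120 and 91 in the WT libraries and of 40 and 57 in the CBE-KO libraries (-1.23, adjusted p = 0.000398). The lysosomal lysolipid carrier Spns1 had counts of 2388 and 2339 in the WT libraries and of 2137 and 1926 in the CBE-KO libraries (-0.34, adjusted p = 2.96e-05). These genes were chosen after their values were seen.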
